A study of Mus musculus with 4 samples.

Results

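Interleukin 6 (IL6)-STAT3 and NF-kB signalling was followed through 10 genes in AML12 cells, a mouse hepatocyte line, grown in 2D or 3D cultures. The genes were chosen by name, with earlier results of these data known. They are Il6ra, Il6st, Osmr, Lifr, Stat3, Socs3, Nfkb1, Nfkbia, Nfkbiz and Tnfaip3, each present once among the 31828 genes of the deposited expression table. The RNA of 4 libraries was sequenced, 2 from cells on flat dishes (2D) and 2 from cells inside Matrigel, a gel of basement membrane proteins (3D). Both cultures received medium with 10% serum, insulin, transferrin, selenium and 40 ng/mL dexamethasone, a glucocorticoid that acts on many inflammatory genes. Both were held at the G1/S boundary with 1 mM hydroxyurea, which blocks DNA replication. This lasted 24 h in the 2D cultures and, after 24 h of growth, 36 h in the 3D cultures. The time in hydroxyurea therefore cannot be told apart from the form of culture. AML12 is a single immortalised line that came from mice carrying a human TGF-alpha transgene, so the libraries describe that line and no liver tissue.

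Both pathways turn signals from outside the cell into transcription within minutes to hours. Cytokines of the IL6 family bind a specific receptor chain, which pairs with the shared chain gp130 (Il6st). JAK kinases on these chains phosphorylate STAT3, which moves to the nucleus and switches on genes that include its own inhibitor Socs3. In NF-kB signalling, the IKK kinases mark IkB proteins such as Nfkbia for degradation and so release dimers of Rela, Nfkb1 and their relatives. Those dimers induce Nfkbia and Tnfaip3, which close the pathway again, and Nfkbiz, a nuclear IkB that helps them at a further set of genes. In hepatocytes the pathways are known for driving the acute phase response.

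Feedback genes of such pathways are classically reached through short sites next to their start, and the bases before the starts of 3 feedback genes are shown for this reason. The windows come from RefSeq on GRCm38.p6, run 5′ to 3′ on the minus strand of the genome, and carry in capitals each match to a motif. Socs3 is shown at chr11:117969467-117969566 (bases -200 to -101 from the start), Nfkbia at chr12:55492648-55492777 and Tnfaip3 at chr10:19015411-19015540 (both bases -130 to -1).
Socs3: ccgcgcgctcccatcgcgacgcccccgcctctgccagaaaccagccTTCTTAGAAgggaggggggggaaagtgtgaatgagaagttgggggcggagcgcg
Nfkbia: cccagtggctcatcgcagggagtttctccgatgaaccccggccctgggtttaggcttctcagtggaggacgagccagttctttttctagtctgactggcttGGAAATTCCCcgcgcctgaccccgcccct
Tnfaip3: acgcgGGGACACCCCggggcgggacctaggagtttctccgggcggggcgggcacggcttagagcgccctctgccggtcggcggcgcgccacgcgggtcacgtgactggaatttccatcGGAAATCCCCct

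The motifs were searched on both strands in windows of 250 bases before to 50 bases after each start. In Socs3 the capitals mark the spaced STAT palindrome TTCNNNGAA, whose match begins 154 bases before the start. That motif occurred in 8.3% of the 32851 RefSeq windows and in 1 of the 10 windows of these genes. The stricter palindrome TTCCNGGAA, which is a special case of the former, occurred in 1.15% of all windows and in 0 of the 10. In Nfkbia and Tnfaip3 the capitals mark the kappaB consensus, at 29 bases before the start of Nfkbia and at 125 and 12 bases before that of Tnfaip3. The kappaB consensus occurred in 4.51% of all windows and in 2 of the 10. The 10 windows cover 8 of the genes, since Tnfaip3 and Lifr have 2 each. Among them only the genes shown had a match, and the stretches printed are those that hold the matches. The second window of Tnfaip3, which is not shown, had none. A match describes letters only, and no binding was measured. In GENCODE the Nfkbia stretch overlaps no annotated feature, while the Socs3 and Tnfaip3 stretches lie in introns of longer transcripts of the same genes.

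Expression was measured as TPM, in which transcript length is accounted for and each library has the same sum, so that the levels of different genes can be compared but the sequencing depth is unknown. Across the 14116 genes with a mean of at least 1 TPM, replicate libraries correlated at 0.991 in 2D and 0.992 in 3D (Pearson, log2(TPM + 1)), and libraries of different cultures at 0.951 to 0.952. Of these genes 50.5% had a limma adjusted p-value under 0.05, 23.4% higher and 27.1% lower in 3D. Of the 10 hepatocyte markers 8 were tested, 6 were higher and 2 lower in 3D. The keratins Krt8 and Krt18 fell, with log2 fold changes of -0.82 and -0.91 and adjusted p-values from limma of 0.000287 and 0.000241, and stood at 1795 TPM or more in every library. Trf, Hnf4a, Apob, Ttr, Apoa1 and Alb rose by 1.03 to 4.24 (log2), with albumin (Alb) at 0.819 and 1.203 TPM in 2D and 12.7 and 10.0 TPM in 3D. Cps1 and Asgr1, genes of mature hepatocytes, did not exceed 0.261 TPM in any library. Of the 6 cholangiocyte markers, which summed to 2269 to 2402 TPM over the libraries, Krt19 and Krt7 fell by 0.49 and 0.65 (log2), Spp1 and Sox9 rose by 2.35 and 0.62 (log2), and Epcam and Cftr did not exceed 0.384 TPM. Of the markers, those beyond the 4 most abundant of each list were named after their values were seen. The markers of other cell types were read because macrophages also use both pathways. The 9 macrophage markers summed to 20.5 to 21.2 TPM in 2D and 24.5 to 28.5 TPM in 3D, mostly Cd68. The defining markers Adgre1 and Clec4f did not exceed 0.0970 TPM. Clec4f had 0.0746 and 0.0970 TPM in 2D and 0.0730 and 0 TPM in 3D, too near 0 to read a direction. The 2 tested macrophage markers, Cd68 and Lyz2, did not pass the threshold (limma adjusted p 0.0576 and 0.459). Cd68 was higher in both 3D libraries, while Lyz2, Cd5l, C1qa and Adgre1 overlapped between cultures. Marco (0.230 and 0.136 TPM in 2D, 1.17 and 0.704 TPM in 3D), Csf1r (0.1815 and 0.127, then 0.534 and 0.416 TPM) and Ptprc (0.184 and 0.111, then 0.296 and 0.2798 TPM) were higher in both 3D libraries than in both 2D libraries, below the filter of the test. Lymphocyte and neutrophil markers summed to 4.68 to 5.70 TPM in 2D and 5.36 to 6.20 TPM in 3D, and endothelial markers to at most 2.22 TPM in any library. Stellate cell and fibroblast markers, mostly Des, summed to 35.0 to 37.7 TPM in 2D and 18.9 to 20.02 TPM in 3D. The part of such cells in the results was not tested. In these bulk libraries, fewer cells making a transcript and less transcript per cell cannot be told apart.

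The 10 genes spanned several orders of magnitude in TPM. Nfkbia had the highest level in both cultures, above 97.4% of the tested genes in 2D and 97.5% in 3D. In 2D it was followed by Nfkb1, Tnfaip3 and Il6st, with means of 71.7, 65.6 and 59.8 TPM and library values that overlapped one another. Stat3 (44.8 TPM), Il6ra (23.1 TPM), Socs3 (11.7 TPM) and Nfkbiz (10.6 TPM) came next in 2D, each apart from its neighbours in every library. In 3D the order was Nfkb1 (99.8 TPM), Tnfaip3 (87.4 TPM), Il6st (54.9 TPM) and Stat3 (53.6 TPM), of which only Il6st and Stat3 overlapped. They were followed in 3D by Socs3 (25.0 TPM), Il6ra (22.5 TPM) and Nfkbiz (18.1 TPM). Socs3 and Il6ra thus exchanged places between the cultures. Osmr and Lifr were last in both cultures.

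**Figure D1:**
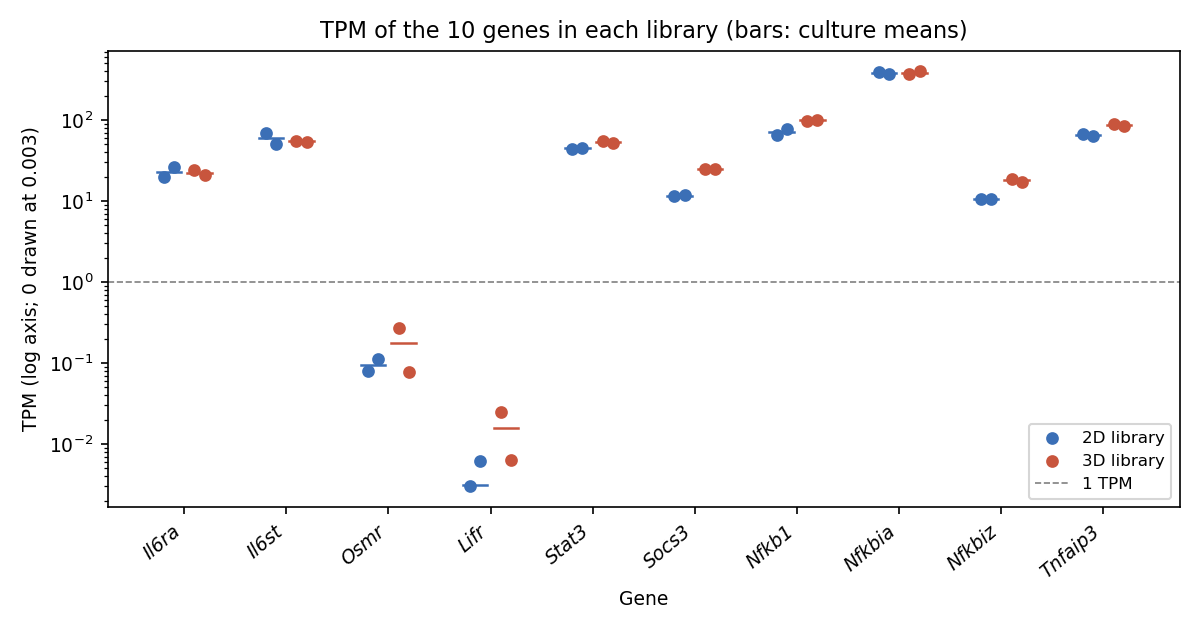
TPM (log axis) of the 10 genes in each of the 4 libraries, with 2D in blue, 3D in red and bars at the culture means. Both 3D libraries lie above both 2D libraries for Stat3, Socs3, Nfkb1, Nfkbiz and Tnfaip3, while Osmr and Lifr stay under the dashed line at 1 TPM, where no test was made.

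Of the 10 genes 8 passed the filter of a mean of 1 TPM. Among these, 5 (Socs3, Nfkbiz, Nfkb1, Tnfaip3 and Stat3) were higher in 3D at a limma adjusted p-value under 0.05, 0 were lower, and Il6ra, Il6st and Nfkbia did not pass the threshold. At an unadjusted limma p-value under 0.05 these counts were the same, with 5 higher and 0 lower. Of all 14116 tested genes, 8133 passed that unadjusted threshold in either direction. Both 3D libraries lay above both 2D libraries for these 5 genes, as for 35.9% of all tested genes, and below them for 0 of the 8, against 41.6% of all tested genes. Without overlap in either direction were 5 of the 8 and 77.5% of all tested genes. The median log2 fold change of the 8 was 0.33, beside -0.04 over all 14116 tested genes, of which 23.4% were called higher. Because the genes were chosen with earlier results of these data known, these counts are no independent evidence of a direction. With 2 libraries against 2, an exact permutation test cannot give a p-value under 0.333, so each call comes from the limma fit across all tested genes. The labels do not say that the replicates are separate cultures, and the p-values then measure only the spread between libraries.

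The receptor chains decide which IL6 family cytokine a cell can read. Il6ra (ENSMUSG00000027947, chromosome 3, 89864059 to 89913196 of GRCm38), the chain specific for IL6, had 19.96 and 26.3 TPM in 2D and 24.1 and 20.9 TPM in 3D. The cultures overlapped, and the spread within 2D was larger than the difference between means. The log2 fold change of 3D over 2D on the log2(TPM + 1) scale was -0.03 (95% interval -0.43 to 0.37, limma adjusted p 0.886). An antisense gene, Gm42809, overlaps Il6ra on the other strand and was listed at 8.55 and 8.46 TPM in 2D and at 4.28 and 4.41 TPM in 3D. Reads were mapped with strand information.

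Il6st (ENSMUSG00000021756, chromosome 13, 112464070 to 112510086) encodes gp130, the chain that all receptors of the family share. Its level was 69.5 and 50.2 TPM in 2D and 55.7 and 54.1 TPM in 3D. Both 3D libraries fell between the 2D libraries. Its log2 fold change had a 95% interval of -0.52 to 0.31 around -0.10 (limma adjusted p 0.617). This value rested on the 2D libraries. Without 2D replicate 1 the log2 fold change was 0.13 (limma adjusted p 0.163), and without 2D replicate 2 it was -0.33, past the threshold (limma adjusted p 0.0203). No direction can be read for Il6st from these libraries, and the intervals of both receptor genes allow changes of either sign.

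Osmr (ENSMUSG00000022146, chromosome 15, 6813577 to 6874969), the receptor chain for oncostatin M, was listed at 0.0801 and 0.112 TPM in 2D and at 0.271 and 0.0779 TPM in 3D. Lifr (ENSMUSG00000054263, chromosome 15, 7090614 to 7197489), the chain for leukemia inhibitory factor, was listed at 0 and 0.0062 TPM in 2D and at 0.0250 and 0.0064 TPM in 3D. Neither gene was tested, because its mean over all 4 libraries was under 1 TPM. Osmr and Lifr thus stayed at or below 0.271 TPM in each library, where Il6ra and Il6st reached at least 19.96 TPM. The values of Lifr were below those of Osmr in all 4 libraries.

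Stat3 (ENSMUSG00000004040, chromosome 11, 100885098 to 100939540), the transcription factor downstream of gp130, had 44.4 and 45.2 TPM in 2D. In 3D it had 54.8 and 52.4 TPM. The cultures did not overlap, and the log2 fold change of 0.25 (SE 0.05, adjusted p 0.0162 with limma) was the smallest of the 5 that passed the threshold. The call was lost without 2D replicate 1 (0.24, limma adjusted p 0.0529), without 3D replicate 1 (0.22, limma adjusted p 0.0918) and without 3D replicate 2 (0.28, limma adjusted p 0.0537). Stat5a overlaps Stat3 on the opposite strand.

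Socs3 (ENSMUSG00000053113, chromosome 11, 117966079 to 117970047) encodes the inhibitor that binds gp130 and the JAK kinases and ends the STAT3 signal. Its level was 11.4 and 12.0 TPM in the 2D libraries. In the 3D libraries it was 25.0 TPM in each. The libraries of the cultures were far apart relative to their spread. With a log2 fold change of 1.04 (SE 0.07) and an adjusted p of 0.000702 by limma, Socs3 had the largest change among the 8 tested genes. Socs3 was called with each library left out, at log2 fold changes of 1.00 to 1.07. The TPM ratio of Socs3 to Stat3 within a library was 0.257 and 0.265 in 2D and 0.457 and 0.478 in 3D. This ratio does not depend on how a library is scaled.

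Nfkb1 (ENSMUSG00000028163, chromosome 3, 135584655 to 135691547) encodes p105, the precursor of the NF-kB subunit p50. It stood at 65.0 and 78.5 TPM in 2D and at 98.2 and 101 TPM in 3D. Every 3D library was above every 2D library, although the 2D libraries differed by more than the 3D libraries did. For Nfkb1 limma gave a log2 fold change of 0.48 (SE 0.10) at an adjusted p of 0.0162. The call was lost without 3D replicate 1 (0.50, limma adjusted p 0.0637) and without 3D replicate 2 (0.45, limma adjusted p 0.0770).

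Nfkbia (ENSMUSG00000021025, chromosome 12, 55489410 to 55492647) encodes IkB-alpha, which holds NF-kB dimers in the cytoplasm. Its level was 393 and 374 TPM in 2D and 374 and 398 TPM in 3D. The ranges of the cultures nearly coincided. A log2 fold change of 0.0089 was estimated (95% interval -0.12 to 0.14, limma adjusted p 0.895). The interval of Nfkbia was the narrowest of the 3 genes that did not pass the threshold, and it lay below the estimates for Socs3, Nfkbiz, Nfkb1, Tnfaip3 and Stat3. It overlapped the 95% interval of Stat3, 0.12 to 0.39. The kappaB match of Nfkbia is printed above.

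Nfkbiz (ENSMUSG00000035356, chromosome 16, 55811375 to 55838899) encodes IkB-zeta, the nuclear IkB that works with p50 on secondary response genes. It had 10.8 and 10.5 TPM in 2D and 18.8 and 17.3 TPM in 3D. The groups were clearly apart. Nfkbiz rose by 0.71 on the log2 scale (SE 0.08, adjusted p 0.00253 by limma), and the value stayed between 0.66 and 0.77 with each library left out.

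Tnfaip3 (ENSMUSG00000019850, chromosome 10, 19000910 to 19015657) encodes A20, a ubiquitin-editing enzyme that shuts down signalling to IKK. Its level was 66.6 and 64.5 TPM in 2D and 89.8 and 85.1 TPM in 3D. The cultures did not overlap. On the log2 scale Tnfaip3 rose by 0.41 (SE 0.05, adjusted p 0.003735 by limma). Tnfaip3 was called with each library left out.

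**Figure D2:**
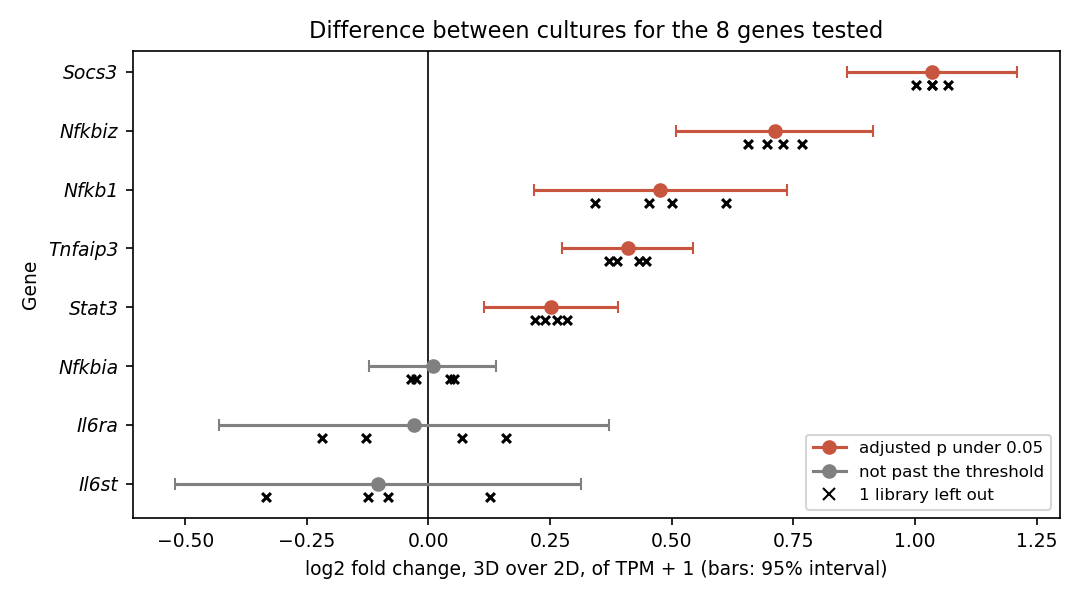
Difference between 3D and 2D on the log2(TPM + 1) scale for the 8 tested genes, with 95% intervals, in red where the limma adjusted p-value was under 0.05, and crosses for the fits that leave out 1 library. Socs3 lies highest at 1.04, and the crosses of Il6ra, Il6st and Nfkbia fall on both sides of 0.

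The level of Nfkbia relative to the other NF-kB genes was also compared within libraries. The TPM ratio of Nfkbia to Nfkb1 was 6.05 and 4.77 in 2D and 3.81 and 3.93 in 3D. Nfkbia to Tnfaip3 was 5.90 and 5.80 in 2D and 4.17 and 4.68 in 3D. Nfkbia to Nfkbiz was 36.5 and 35.6 in 2D and 19.9 and 23.0 in 3D. In each of these pairs both 3D ratios were below both 2D ratios. Nfkb1, Tnfaip3 and Nfkbiz were called higher above and Nfkbia was not, so these ratios restate those values and add no further result. The ratio of Il6st to Il6ra was 3.48 and 1.91 in 2D and 2.31 and 2.59 in 3D, so that the 3D libraries again fell between the 2D libraries. The ratios were described without a test.

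**Figure D3:**
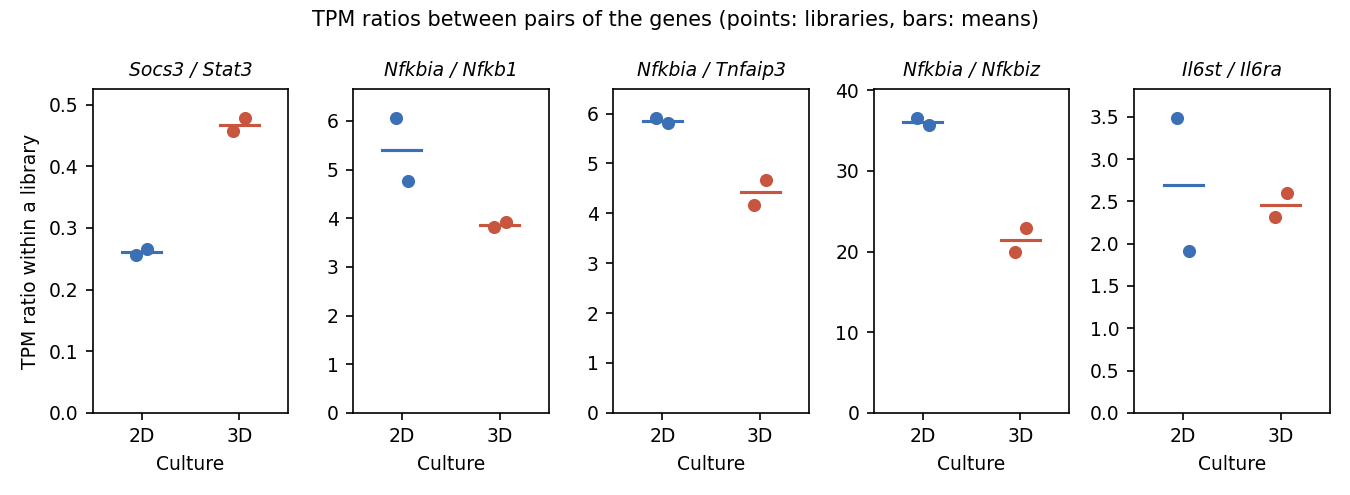
TPM ratio of 5 pairs of genes within each library (points) with the culture mean (bar), on axes that start at 0. The ratio of Socs3 to Stat3 is higher in both 3D libraries, the ratios of Nfkbia to Nfkb1, Tnfaip3 and Nfkbiz are lower, and that of Il6st to Il6ra overlaps.

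The other genes of both pathways were read from 8 lists. Of their 121 genes 102 were tested, 55 were higher and 19 lower in 3D at a limma adjusted p-value under 0.05, and 28 did not pass. The shares were 53.9% higher and 18.6% lower, beside 23.4% and 27.1% of all tested genes, and lists chosen with earlier results known are no independent evidence of a direction. The named genes below are all detected ligands and, of each other list, the 4 with the highest mean TPM, unless it is said that a gene was chosen after its values were seen.

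RNA of several ligands of the IL6 family was detected in these bulk libraries. Of 8 ligand genes 6 were tested, with a median log2 fold change of 0.38, and 2 were higher and 1 lower in 3D. The share called was 50%, beside 50.5% of all tested genes. Lif, which signals through Lifr and gp130, was the most abundant, at 141 and 145 TPM in 2D and 283 and 263 TPM in 3D (log2 fold change 0.93, SE 0.05, limma adjusted p 0.000526). Il6 rose from 5.49 and 4.75 TPM to 9.23 and 10.9 TPM (0.85, SE 0.12, limma adjusted p 0.00541). Il11, whose receptor also pairs with gp130, fell from 4.84 and 4.73 TPM to 2.08 and 1.55 TPM (-1.04, SE 0.14, limma adjusted p 0.00413). Clcf1, at 30.6 and 37.7 TPM in 2D and 42.4 and 34.1 TPM in 3D, did not pass the threshold and overlapped between cultures. Cntf had 4.59 and 4.91 TPM in 2D and 1.97 and 3.49 TPM in 3D, and Ctf1 had 2.16 and 0.896 TPM in 2D and 2.25 and 3.24 TPM in 3D (limma adjusted p 0.0639 and 0.155). Osm was listed at 0.1055 TPM or less in each library. The most abundant ligand, Lif, thus had a receptor chain listed near 0, whereas Il6 and its receptor chain were both present.

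Of the remaining receptor chains, JAKs and STATs, 11 of 13 were tested, with a median log2 fold change of 0.55. Higher were 8 and lower 2 (72.7% and 18.2%, beside 23.4% and 27.1% of all tested genes). Jak2, a kinase bound to gp130, rose from 39.6 and 42.5 TPM to 86.1 and 87.5 TPM (1.06, SE 0.06, limma adjusted p 0.000494). Jak1, the kinase most closely tied to gp130, rose from 61.4 and 63.2 TPM to 77.0 and 74.5 TPM (0.28, SE 0.05, limma adjusted p 0.00943). Stat6 and Stat2, which serve IL4 and interferon receptors, rose by 0.66 and 0.58 (limma adjusted p 0.00107 and 0.00856). The genes that fell, named after their values were seen, were the receptor chains Il11ra1 (-0.28, limma adjusted p 0.0328) and Cntfr (-1.36, limma adjusted p 0.00512). Cntfr was low in both cultures, at 1.62 and 2.47 TPM in 2D and 0.135 and 0.215 TPM in 3D. Only its 2D values carried it past the filter of 1 TPM.

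All 15 inhibitors of JAK-STAT signalling were tested, with 6 higher, 2 lower and a median log2 fold change of 0.23. The share called was 53.3%, beside 50.5% of all tested genes. The number called was 5 without 3D replicate 1 and 4 without 3D replicate 2. Socs2, which restrains growth hormone signalling, rose by 0.98 (limma adjusted p 0.000727), and Pias4 and the phosphatase Ptpn1 rose by 0.75 and 0.29 (limma adjusted p 0.00107 and 0.0153). Ptpn11, which encodes the phosphatase SHP2, did not pass the threshold (0.02, limma adjusted p 0.752). Among the SOCS relatives, Cish, named after its values were seen, fell from 15.1 and 16.2 TPM to 5.04 and 4.74 TPM (-1.50, limma adjusted p 0.00055). Socs1, the closest relative of Socs3 in function and also named afterwards, had 3.54 and 3.37 TPM in 2D and 3.595 and 3.83 TPM in 3D (0.08, limma adjusted p 0.541). Socs3 and Socs2 thus rose in the cultures in which Cish fell.

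The STAT3 targets of the liver were divided. Of 23 targets 12 were tested, with a median log2 fold change of 0.29. Higher were 7 and lower 3 (58.3% and 25%, beside 23.4% and 27.1% of all tested genes). Saa3, an acute phase serum amyloid, was at 13.4 and 11.6 TPM in 2D and at 1053 and 1100 TPM in 3D. Lbp, which binds bacterial lipopolysaccharide, rose from 103 and 99.5 TPM to 432 and 427 TPM (2.07, limma adjusted p 0.00017), and the transcription factor Cebpb rose by 0.23 (limma adjusted p 0.0236). Junb fell from 860.5 and 889 TPM to 599 and 606 TPM (-0.54, limma adjusted p 0.000704). The 2 other targets called lower, Timp1 and Pim1, were named after their values were seen (-1.60 and -0.85, limma adjusted p 0.00023 and 0.00301). The fibrinogen genes Fga, Fgb and Fgg, classical IL6 targets of hepatocytes and also named afterwards, were listed at 0.117 TPM or less in each library. Among the untested targets, Steap4 (0.4085 and 0.553, then 0.0577 and 0.0592 TPM), Hamp and Saa1 were lower in both 3D libraries. Apcs and Fgb were higher in both, and the others overlapped. With no filter on low values, 6 of the 23 targets were called higher and 4 lower, beside 2781 and 3198 of all 31815 genes. The remaining targets called higher, also named afterwards, were Hp (5.43), Hpx (2.93), Orm2 (0.89) and Orm1 (0.36), with limma adjusted p-values of 0.000317 to 0.00548. Orm2 had 0.668 and 0.783 TPM in 2D and 2.24 and 2.13 TPM in 3D, and passed the filter only through its 3D values.

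In the NF-kB pathway, 10 of the 11 other subunit, IkB and IKK genes were tested, with a median log2 fold change of 0.20. Of these, 5 were higher and 2 lower (50% and 20%, beside 23.4% and 27.1% of all tested genes). The number called was 4 without 3D replicate 1. Relb, a subunit of the non-canonical branch, rose from 114 and 141 TPM to 264 and 217 TPM (0.91, SE 0.14, limma adjusted p 0.00679). Nfkb2, its usual partner and the most abundant gene of this list, fell from 593 and 616 TPM to 551 and 547 TPM (-0.14, limma adjusted p 0.0321). Rela, the main activating subunit, had 400 and 423 TPM in 2D and 441 and 442 TPM in 3D and did not pass the threshold (0.10, limma adjusted p 0.102). Nfkbib, a second cytoplasmic IkB, rose by 0.30 (limma adjusted p 0.00476). Bcl3, a nuclear IkB like Nfkbiz and named after its values were seen, rose by 1.04 (limma adjusted p 0.0023).

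All 16 adaptors and kinases upstream of IKK were tested, with a median log2 fold change of 0.19. Among them 7 were higher and 3 lower (43.8% and 18.8%, beside 23.4% and 27.1% of all tested genes). The number called was 5 without 3D replicate 1 and 4 without 3D replicate 2. Tnfrsf1a, the main receptor for TNF, rose from 119 and 127 TPM to 204 and 214 TPM (0.76, SE 0.05, limma adjusted p 0.00084). The adaptors Traf2 and Tab2 rose by 0.17 and 0.25 (limma adjusted p 0.0272 and 0.0487), and Rbck1 did not pass the threshold (0.07, limma adjusted p 0.381). Tnf itself, named after its values were seen, was listed at 0.0769 and 0.0366 TPM in 2D and at 1.099 and 1.51 TPM in 3D, and its mean was too low for the test.

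Tnfaip3 acts with other feedback inhibitors, of which 12 of 12 were tested, with a median log2 fold change of 0.19. Among them 6 were higher and 2 lower (50% and 16.7%, beside 23.4% and 27.1% of all tested genes). Tnip1, the A20-binding partner, rose from 132 and 132 TPM to 200 and 180 TPM (0.52, limma adjusted p 0.00336). Tax1bp1 and Rnf11, which are subunits of the A20 complex, fell by 0.28 and 0.54 (limma adjusted p 0.0052 and 0.00105). The deubiquitinase Cyld did not pass the threshold (0.03, limma adjusted p 0.664). The largest rises of this list, named after their values were seen, were those of Zc3h12a, an RNase that degrades Il6 mRNA, from 6.81 and 6.91 TPM to 26.8 and 27.5 TPM (1.84, limma adjusted p 0.00028), and of Tnip3 (1.71, limma adjusted p 0.000565). Partners within the A20 complex thus changed in opposite directions.

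Of the 23 NF-kB targets 20 were tested, with a median log2 fold change of 0.99. Higher were 14 and lower 4 (70% and 20%, beside 23.4% and 27.1% of all tested genes). The chemokine Ccl2 rose from 652 and 618 TPM to 1574 and 1619 TPM (1.33, limma adjusted p 0.00023), and Cxcl1 from 76.3 and 74.2 TPM to 447 and 432 TPM (2.53, limma adjusted p 9.63e-05). Gadd45b, a stress-induced gene, fell from 247 and 250 TPM to 71.0 and 75.7 TPM (-1.75, limma adjusted p 0.000211), and the growth factor Csf1 fell by 0.48 (limma adjusted p 0.00278). The adhesion molecules, named after their values were seen, split, since Vcam1 rose by 1.53 and Icam1 fell by 0.46 (limma adjusted p 0.000241 and 0.00162).

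**Figure D4:**
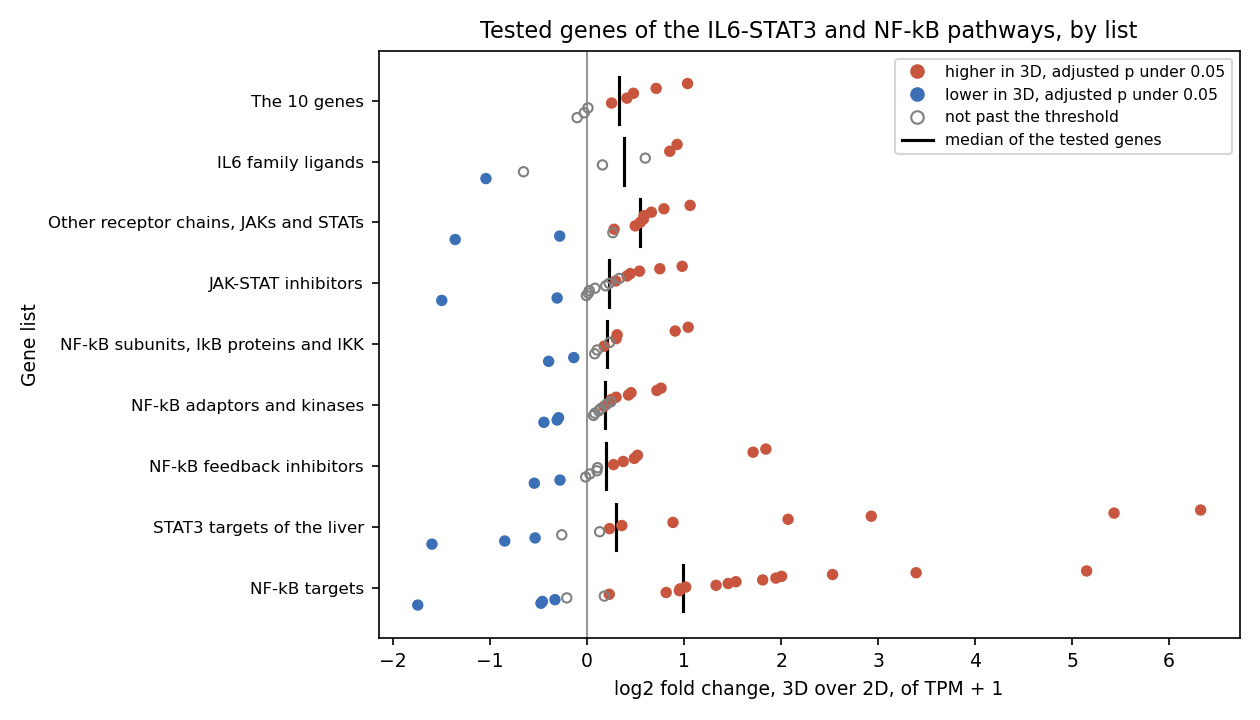
Difference between 3D and 2D on the log2(TPM + 1) scale for each tested gene of the 10 genes and of the 8 pathway lists, in red or blue where the limma adjusted p-value was under 0.05, with bars at the medians. Every list holds genes on both sides of 0, and the median of the NF-kB targets, 0.99, is the highest.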

How the data were processed

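Stranded mRNA libraries were made from AML12 cells in 2D and 3D cultures (n = 2 each). Per the labels and methods, reads were trimmed by the authors (cutadapt 1.8.3, Trimmomatic 0.36), mapped to GRCm38 (HISAT2 2.0.5) and quantified over Ensembl genes (StringTie 1.3.4). The deposited values are TPM for each library, not pooled, which keep no depth, and a listed 0 can be a failed estimate. The table also holds the log2 fold change and p-value of the authors' own comparison, which were not used.

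Cultures were compared by limma 3.58.1 (R 4.3.3) as log2(TPM + 1), for genes whose mean over all libraries was 1 TPM or more (trend and robust, culture as the only factor, two-sided, Benjamini-Hochberg adjustment over all tested genes, threshold 0.05). This scale understates changes of low genes. The script was tested on simulated data. Alternatives were other pseudocounts, filters, scalings and variance priors, a replicate block, and each library left out. In the last, the lone library is assumed to vary like the other culture. Positions follow the deposited table and were checked against GENCODE; symbols were matched by name, and Timd4 and Lrat, 2 of the 45 markers, were not analysed here. A gene of the ligand list is not reported here by name. RefSeq windows of Nfkb1 and Nfkbiz were not used here. Motifs were searched with Python 3.11.15, and figures were drawn with matplotlib 3.10.9.

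The members, lists and rule for named genes (all 10 genes, all detected ligands, and the 4 genes of highest mean TPM in each list) were chosen with earlier results of these data known, so lists are described by counts and medians without a set test.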

Additional observations from a re-analysis of the deposited data

How the results depend on the processing

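Over all tested genes, 7122 were called, and 4720 to 5954 with each library left out, the lowest without 3D replicate 1. Socs3, Nfkbiz and Tnfaip3 were called higher in 3D under all alternatives run. Stat3 and Nfkb1 lost the call only in fits with a library left out, where log2 fold changes ranged from 0.22 to 0.28 and from 0.34 to 0.61, and fewer libraries enter those fits by construction. Il6ra, Il6st and Nfkbia changed sign in such fits, with ranges of -0.22 to 0.16, -0.33 to 0.13 and -0.036 to 0.053. Counts of called genes ranged in these fits from 4 to 8 for JAK-STAT inhibitors, 4 to 6 for NF-kB subunits, IkB proteins and IKK, 4 to 10 for adaptors and kinases, and 3 to 8 for glucocorticoid-induced genes. Deviations of same-numbered libraries from their culture means were not positively correlated (-0.055), and the numbers are names only. With the replicate block 6248 genes were called, 6061 of them shared with the fit without it, and no call among the 8 tested genes changed. Osmr and Lifr could be fitted only with no filter on low values, and did not pass the threshold (limma adjusted p 0.587 and 0.635). The count tests planned in case the files held counts were not run. Unknown depth leaves the precision of levels under 1 TPM unknown.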

Other observations

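The medium of both cultures held dexamethasone, and genes that glucocorticoids induce were therefore read beside the inflammatory genes. Of 10 such genes 8 were tested, with 5 higher, 1 lower and a median log2 fold change of 0.22 in 3D. The shares were 62.5% higher and 12.5% lower, beside 23.4% and 27.1% of all tested genes. The number called was 3 without 3D replicate 1 and 3 without 3D replicate 2. Sgk1, a kinase that controls ion transport, rose from 80.1 and 83.3 TPM to 199 and 202 TPM (1.28, SE 0.04, limma adjusted p 0.000241). Ddit4, an inhibitor of mTOR signalling, rose by 0.21 (limma adjusted p 0.00938). The phosphatase gene Dusp1 fell from 199 and 199 TPM to 157 and 158 TPM (-0.34, limma adjusted p 0.00252). Tsc22d3, which encodes the glucocorticoid-induced leucine zipper protein GILZ that binds NF-kB, had 141.5 and 179 TPM in 2D and 126 and 141 TPM in 3D and did not pass the threshold (-0.26, limma adjusted p 0.158).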
